A study of Mus musculus with 4 samples.

Results

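The mitotic spindle, kinetochore and cytokinesis genes are 46 mouse genes, listed by symbol for their role in cell division. No measured value enters the rule, though the list was drawn up with earlier results of these data known. They were found on the array through the transcript accession of each probe that was not a control. All 46 were present, with 63 probes, among 19751 named genes and 39429 probes, and all 46 entered the test over 15673 genes through 62 of those probes. In 33 genes 1 probe carried the measurement, and 13 genes had more than 1.

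The RNA came from C2C12, an established line of mouse myoblasts that leave the cell cycle and fuse into myotubes when serum is lowered. The treated group was grown with interferon gamma (IFN-γ) at 1 ng/ml and the control group without the cytokine, and both were harvested on day 3 of differentiation, started at about 80% confluence. Each of 4 arrays set 1 treated sample, labelled with Cy5, against untreated control RNA, labelled with Cy3, from 8 µg of total RNA. Horse serum of the differentiation medium is given as 2% in the treatment protocol and as 10% in the sample names of both groups. The treated samples are described as biological replicates 1 to 4, while nothing says whether the controls came from separate cultures, so the p-values below cover only the variation from array to array, which may be technical in part. All treated RNA was in Cy5, so an effect of the dye and an effect of the cytokine cannot be told apart in any value below. RNA was measured in bulk, so a larger share of dividing cells and more transcript per dividing cell cannot be told apart either.

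Entry into mitosis is driven by Cdk1 bound to A- and B-type cyclins, and exit by the anaphase-promoting complex, which marks the cyclins and securin for degradation. Between these steps condensin compacts the chromosomes, kinesins build the bipolar spindle, kinetochores tie chromosomes to microtubules under the control of a checkpoint, and a central spindle directs the cleavage furrow. Transcription of most of these genes peaks late in the cell cycle. It is shut off by the DREAM complex when cells become quiescent, as myoblasts do on differentiation, and switched on by B-Myb and FoxM1 on the same MuvB core.

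Promoters of late cell cycle genes are known for a CHR element, TTTGAA, often set close to a CCAAT box, which binds NF-Y. RefSeq promoter windows of assembly GRCm38.p6, from 250 bases before to 50 bases after the start of transcription, were matched by symbol for 39 of the 46 genes. The following 120-base stretches before the start show this layout in 6 of them and its absence in Nuf2. They are written 5′ to 3′ on the gene's strand, with each CHR element or CCAAT box on either strand in capitals.
Kif11, chr19:37376262-37376381, plus strand: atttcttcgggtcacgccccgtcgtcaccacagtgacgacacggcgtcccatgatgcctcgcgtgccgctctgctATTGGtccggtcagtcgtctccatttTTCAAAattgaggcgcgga
Top2a, chr11:99024190-99024309, minus strand: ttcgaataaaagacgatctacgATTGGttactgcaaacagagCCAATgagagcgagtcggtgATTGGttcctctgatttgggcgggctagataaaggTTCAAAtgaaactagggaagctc
Kif22, chr7:127042421-127042540, minus strand: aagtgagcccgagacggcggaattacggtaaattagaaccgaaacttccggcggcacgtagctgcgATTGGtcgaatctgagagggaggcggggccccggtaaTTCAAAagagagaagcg
Espl1, chr15:102296173-102296292, plus strand: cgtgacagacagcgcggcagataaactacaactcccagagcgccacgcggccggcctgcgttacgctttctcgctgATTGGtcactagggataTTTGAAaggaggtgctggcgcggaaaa
Cdk1, chr10:69352913-69353032, minus strand: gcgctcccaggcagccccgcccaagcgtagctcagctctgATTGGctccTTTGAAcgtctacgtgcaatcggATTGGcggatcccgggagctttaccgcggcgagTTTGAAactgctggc
Ect2, chr3:27153879-27153998, minus strand: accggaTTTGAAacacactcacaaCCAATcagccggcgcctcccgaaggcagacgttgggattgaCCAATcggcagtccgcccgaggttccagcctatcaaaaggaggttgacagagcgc
Nuf2, chr1:169531465-169531584, minus strand: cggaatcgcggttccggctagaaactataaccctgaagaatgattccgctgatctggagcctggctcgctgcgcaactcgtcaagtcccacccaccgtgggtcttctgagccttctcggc

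A CHR element (TTTGAA on either strand) lay in the window of 29 of the 39 genes, or 74.4%, against 17.9% of all 32851 promoter windows and 15.5% of the 12470 tested genes with a window. The CCAAT box (CCAAT on either strand) was found in 29 of 39 as well. It stood in 37.4% of all windows and 42.7% of those tested genes. Both motifs, which can share a base where they meet, stood in 26 of 39 genes, or 66.7%. This held for 6.95% of all windows and 6.39% of the tested genes with a window. In those 26 genes the gap between the CHR element and the nearest CCAAT box had a median of 20 bases and was under 40 bases in 20 genes. In Cdca8 they overlapped by 1 base, and the widest gap was 148 bases. The core of the interferon-stimulated response element was taken as a pair of GAAA repeats with 2 bases between them, on either strand. It was found in 3 of 39, or 7.69%, against 3.44% of all windows and 3.81% of the tested genes. A match is a description of these letters and not of a bound site.

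IFN-γ-treated cells had higher expression of 41 of the 46 mitotic genes, or 89.1%, and lower expression of 0 past the threshold, an adjusted p under 0.05 in limma over all 15673 genes. The count of lower genes was also 0 at an unadjusted p under 0.05 and with the methods' t-test, the unpaired test on channel values that the study names. It was 2 under centring on the tested genes, 1 without replicate 2 and 1 with array weights. Over all tested genes 19.8% were called higher, 13.9% lower and 33.7% changed in either direction. Among the 11659 genes as bright as the mitotic genes, 23% were called higher. The median over the mitotic genes of the mean log2 ratio, treated over control, was 0.52, a 1.44-fold difference, beside 0.03 over all tested genes. The means ran from −0.45 ± 1.19 (SD, n = 4) for Ndc80 to 1.08 ± 0.34 for Kif20a. A rise of 2-fold or more was measured for 4 genes, Kif20a, Tpx2, Kif11 and Top2a, and over all genes 1.8% reached it. That number depends most on the scaling, and also on the background correction, the choice of probe and replicate 2. Under median centring 40 genes reached 2-fold, with the median of all tested genes itself at 0.70. Centring on the tested genes gave 6, and averaging over probes gave 3. With Feature Extraction's log ratios 12 genes reached it, led by Kif11 at 1.98, and without replicate 2 it was Top2a alone. The genes that did not pass were Ccnb1, Ndc80, Spc24, Smc2 and Pttg1.

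**Figure D1:**
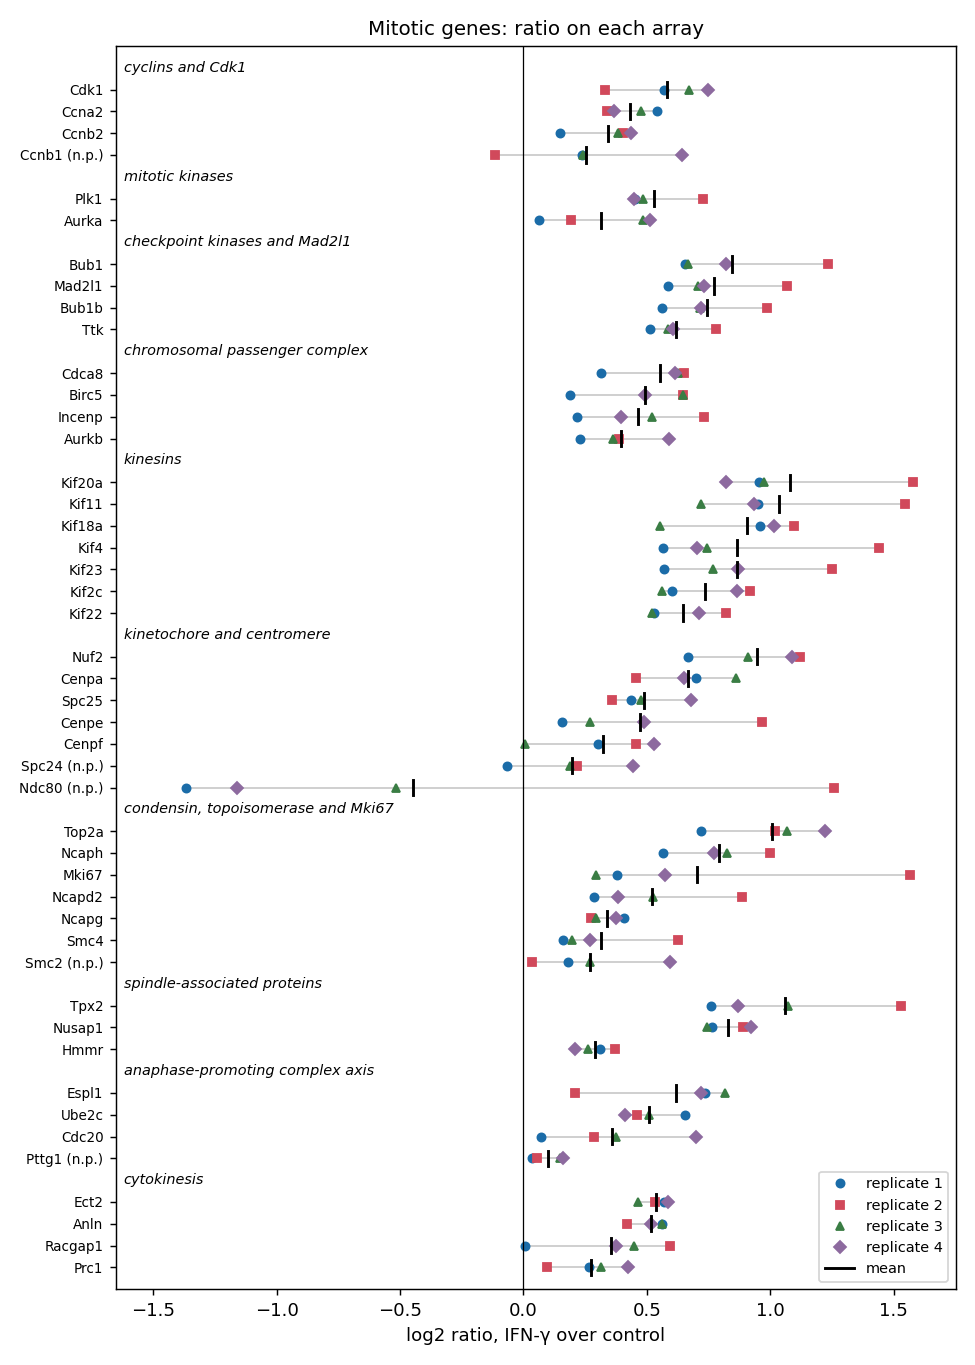
Log2 ratio of IFN-γ-treated over control for each of the 46 genes on the 4 arrays, grouped by role. Symbols are the arrays, the short vertical bar is the mean and the grey line spans the lowest to the highest array; (n.p.) marks the 5 genes that did not pass. Of the 46 genes, 43 lie above 0 on all 4 arrays, and Ndc80 lies far from the rest on replicate 2.

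The ratio was above 0 on all 4 arrays for 43 of the 46 genes, against 29.5% of all tested genes. The exceptions were Ccnb1, Spc24 and Ndc80. In 39 of the 46 the treated channel level on each array was above the control channel level of every array, which held for 20.1% of all genes. On single arrays, 44 genes were above 0 on replicate 1, against 53.8% of all genes, 45 on replicate 2, against 52.2%, and 45 on each of replicates 3 and 4, against 55.3% on both. The median over the genes was 0.48, 0.65, 0.52 and 0.60 on replicates 1 to 4, beside medians over all genes of 0.02 to 0.04. These 4 medians had an SD of 0.075. The SDs of single genes over the 4 arrays had a median of 0.21.

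**Figure D2:**
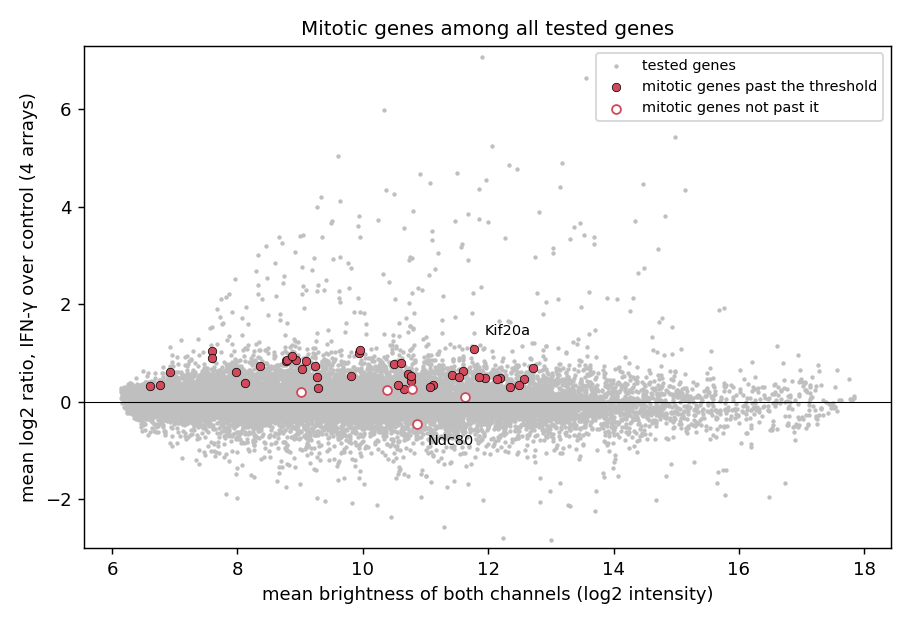
Mean log2 ratio over 4 arrays against mean brightness of both channels, for all 15673 tested genes in grey and the 46 mitotic genes in red. Filled red points are the 41 genes past the threshold and open ones the 5 that are not; all but Ndc80 lie above 0, and they span brightness values from 6.60 to 12.7.

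Median spot intensities per array were 79.8 to 97 in the control channel and 149.5 to 264 in the treated channel, and 22453 to 30148 probes per array and channel were well above background. No mitotic gene had a saturated spot, and all 46 were well above background in the treated channel on all 4 arrays. In control RNA, 41 genes were well above background on all 4 arrays. The number of such arrays was 3 for Kif11 and Kif18a, 2 for Ttk, 1 for Ncapg and 0 for Cenpf. The largest rise of all tested genes was that of Gbp3, an interferon-induced GTPase, at 7.08 on the log2 scale. Of 10 myogenic markers tested, 9 had a control signal well above background on at least 3 arrays. Of the 10, 4 fell, among them Des at −1.23 ± 0.26, Ckm at −1.12 ± 0.73 and Tnnt3 at −0.63 ± 0.17. Myf5 rose and 5 did not pass, of which Acta1, the brightest, was at −0.36 ± 0.57. Under median centring, where 67% of all genes were called higher, 7 of these markers were higher and 1 lower.

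Markers of other cells were read beside these values. Of the 5 leukocyte markers measured, 0 rose in limma (0 at an unadjusted p under 0.05), Cd3e fell, and 3 had a control signal well above background. Ptprc, the leukocyte common antigen, was at 0.01 ± 0.10 with brightness near the floor, and Itgam, the brightest of them, did not pass at −0.14 ± 0.35. Of 3 endothelial markers tested 0 rose by the same measures, Kdr fell, and 2 were above background. Pecam1, the brightest that did not pass, was at −0.19 ± 0.14. Under median centring 2 leukocyte markers were called higher and 3 lower, and 1 endothelial marker was higher and 1 lower. Under centring on the tested genes 0 of either list were higher, and 4 leukocyte and 3 endothelial markers were lower. With Feature Extraction's log ratios 1 endothelial marker was higher and 2 lower, and 0 leukocyte markers were higher and 1 lower. Of 4 fibroblast markers tested, 3 rose, as most mitotic genes did. These were Col3a1 at 1.15 ± 0.30, Pdgfra at 0.67 ± 0.17 and Col1a1 at 0.46 ± 0.29 (SD, n = 4). Dcn did not pass at 0.04 ± 0.35. The mean normalised log2 level over the 4 fibroblast markers was 13.3 to 13.6 in the control channel and 13.9 to 14.1 in the treated channel, and all 4 were above background in control cells. For the 10 myogenic markers it was 12.2 to 12.4 in control and 11.9 to 12.1 in treated. The part of either list in the mitotic values was not tested.

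All 7 kinesins rose, with a median of 0.86 (1.82-fold) and means from 0.64 for Kif22 to 1.08 for Kif20a. Kif20a, a motor of the central spindle needed for cytokinesis, had log2 ratios of 0.95, 1.58, 0.97 and 0.82 on replicates 1 to 4. Its raw median spot intensities were 1719, 865, 838 and 1475 in control and 12073, 7829, 10958 and 11365 in treated RNA, before the dyes were balanced. Every treated level lay above every control level, and replicate 2 was the highest, giving a rise of 2.12-fold (adjusted p = 0.0027, 95% confidence interval of the log2 ratio 0.76 to 1.40). Kif11, the motor that slides antiparallel microtubules apart to separate the poles, had ratios of 0.95, 1.55, 0.72 and 0.93, a mean of 1.04 ± 0.36 and 2.05-fold (adjusted p = 0.00343). Replicate 2 was again the highest. Kif18a, which dampens chromosome movement at plus ends, gave 0.96, 1.10, 0.55 and 1.02 and a mean of 0.91 ± 0.24 (adjusted p = 0.00217). This gene was lowest on replicate 3.

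Kif4, a chromosome-bound motor that also works at the midzone, had ratios of 0.57, 1.44, 0.74 and 0.70 and a mean of 0.86 ± 0.39 (adjusted p = 0.00771). Kif23, which forms centralspindlin with Racgap1, had 0.57, 1.25, 0.77 and 0.87 and a mean of 0.86 ± 0.29 (adjusted p = 0.00355). In both, replicate 2 stood highest and replicate 1 lowest, with no overlap of treated and control levels. Kif2c, a microtubule depolymerase at the centromere, was measured at 0.60, 0.92, 0.56 and 0.86, with a mean of 0.74 ± 0.18. Kif22, a chromokinesin that pushes chromosome arms outward, was measured at 0.53, 0.82, 0.52 and 0.71, with a mean of 0.64 ± 0.15. These values put Kif2c and Kif22 lowest among the kinesins, though their intervals (0.53 to 0.94 and 0.46 to 0.83) overlap that of Kif20a. All 7 calls were kept when any array was left out, with adjusted p of 0.0384 or less. Under centring on the tested genes without loess, Kif18a no longer passed. Feature Extraction's log ratios put Kif11 at 1.98 and Kif18a at 1.72, both dim in control RNA.

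On their brightest probes the checkpoint genes rose by similar amounts, a likeness that was not tested. All 4 passed, with means between 0.62 and 0.84 and a median of 0.76. Bub1, a kinase that recruits shugoshin and checkpoint proteins to the kinetochore, had ratios of 0.65, 1.23, 0.67 and 0.82 and a mean of 0.84 ± 0.27, or 1.79-fold (adjusted p = 0.00337). Bub1b, which encodes the checkpoint protein BubR1 and inhibits the anaphase-promoting complex, had 0.56, 0.99, 0.71 and 0.72 and 1.68-fold (adjusted p = 0.00224). Mad2l1, the Mad2 protein that holds Cdc20 inactive, had 0.59, 1.07, 0.71 and 0.73 and 1.71-fold (adjusted p = 0.0026). Other Mad2l1 probes were at −0.19 and 0.56, and the mean of its probes was 0.38. Ttk, the kinase Mps1 that starts checkpoint signalling, had 0.51, 0.78, 0.58 and 0.61 and 1.54-fold (adjusted p = 0.00217). On each of these genes replicate 2 was the highest and replicate 1 the lowest, and treated and control levels did not overlap. The 4 calls were kept when any array was left out, with adjusted p of 0.0238 or less. Ttk was above background in the control channel on 2 arrays, and its mean ran from −0.21 under centring on the tested genes without loess to 1.74 with Feature Extraction's log ratios.

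Of the 4 genes for cyclins and Cdk1, 3 rose, and the median was 0.39. Cdk1, the kinase that drives mitosis, had ratios of 0.57, 0.33, 0.67 and 0.75 and a mean of 0.58 ± 0.18, or 1.49-fold (adjusted p = 0.00482). Ccna2, cyclin A of S phase and early mitosis, had 0.54, 0.34, 0.48 and 0.37 and 1.35-fold (adjusted p = 0.00545). Replicate 2 was the lowest in both, opposite to the kinesins. Ccnb2, a B-type cyclin, had 0.15, 0.40, 0.38 and 0.43 and 1.27-fold (adjusted p = 0.0158), and its call was lost without replicate 3 (adjusted p = 0.0817) or replicate 4 (0.0768). Ccnb1, the main mitotic B-type cyclin, had 0.24, −0.12, 0.24 and 0.64 on its brightest probe, with a mean of 0.25 ± 0.31 and a 95% confidence interval of −0.04 to 0.55 (adjusted p = 0.162). It was below 0 on replicate 2, and without that array it passed at 0.37 (adjusted p = 0.0159).

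Both mitotic kinases rose. Plk1, which acts in centrosome maturation, spindle assembly and cytokinesis, had ratios of 0.45, 0.73, 0.49 and 0.45 and a mean of 0.53 ± 0.13, or 1.44-fold (adjusted p = 0.00417). The value on replicate 2 stood apart, above the other 3. Aurka, the Aurora kinase of the spindle poles, had 0.06, 0.19, 0.48 and 0.51 and a mean of 0.31 ± 0.22 (adjusted p = 0.0482). Replicates 1 and 2 were low and replicates 3 and 4 high for Aurka. Its call was lost without replicate 3 (adjusted p = 0.188) or replicate 4 (0.175), and it did not pass with Feature Extraction's own log ratios.

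The chromosomal passenger complex corrects faulty attachments at the centromere and later moves to the midzone. All 4 of its genes rose, with a median of 0.48. Cdca8, the borealin subunit, had ratios of 0.31, 0.65, 0.63 and 0.62 and a mean of 0.55 ± 0.16, or 1.47-fold (adjusted p = 0.00456). Birc5, the survivin subunit, had 0.19, 0.64, 0.64 and 0.49 and 1.41-fold (adjusted p = 0.0108). Incenp, the scaffold that activates the kinase, had 0.22, 0.73, 0.52 and 0.40 and 1.38-fold (adjusted p = 0.0131). Aurkb, that kinase, had 0.23, 0.39, 0.36 and 0.59 and 1.31-fold (adjusted p = 0.0118). Replicate 1 was the lowest array for all 4. Cdca8 kept its call when any array was left out. Without replicate 3 or replicate 4 the others did not pass, with adjusted p of 0.0591 and 0.0531 for Aurkb, 0.062 and 0.0526 for Birc5, and 0.0687 and 0.0522 for Incenp. Under centring on the tested genes without loess Aurkb did not pass either.

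Of the 7 kinetochore and centromere genes 5 rose, with a median of 0.47. The Ndc80 complex, the microtubule-binding rod of the outer kinetochore, has 4 subunits. Nuf2 and Spc25 passed and Spc24 and Ndc80 did not, and the difference between the subunits was not tested. Nuf2, the partner of Ndc80 in the dimer that grips microtubules, had ratios of 0.67, 1.12, 0.91 and 1.09 and a mean of 0.95 ± 0.21, or 1.93-fold (adjusted p = 0.00143). Spc25, of the dimer that anchors the rod to the centromere, had 0.44, 0.36, 0.48 and 0.68 and 1.4-fold (adjusted p = 0.00543). Neither of these calls was lost when an array was left out. Spc24, the partner of Spc25, had −0.07, 0.21, 0.19 and 0.45 and a 95% confidence interval of −0.03 to 0.42 (adjusted p = 0.153). It was below 0 on replicate 1 and its treated and control levels overlapped.

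Ndc80 itself had ratios of −1.37, 1.26, −0.51 and −1.16, with a mean of −0.45 ± 1.19 and a 95% confidence interval of −1.46 to 0.57 (adjusted p = 0.451). Replicates 1, 3 and 4 were below 0 and replicate 2 was far above. Raw median spot intensities of its 1 probe were 2218.5, 675, 512 and 1636.5 in control and 3081, 4897, 2227.5 and 3110.5 in treated RNA. The treated intensity was thus highest on replicate 2, while the control intensity there was neither the highest nor the lowest. Without replicate 2 the gene was called lower at −1.01 (adjusted p = 0.00173), and under median centring without loess its mean turned to 0.52. Its SD of 1.19 was the largest among the 46 genes.

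Cenpa, the histone H3 variant that marks the centromere, had ratios of 0.70, 0.46, 0.86 and 0.65 and a mean of 0.67 ± 0.17, or 1.59-fold (adjusted p = 0.00279), and kept its call when any array was left out. Cenpe, the kinetochore motor that moves chromosomes to the spindle equator, had 0.16, 0.96, 0.27 and 0.49 and 1.39-fold (adjusted p = 0.0419). Replicate 2 was well above the other arrays for Cenpe, and the call was lost without replicate 1 (adjusted p = 0.0504), 3 (0.0884) or 4 (0.132). Cenpf, a large protein of the outer kinetochore, had 0.30, 0.46, 0.01 and 0.53 (adjusted p = 0.0485). Raw median intensities of Cenpf were 50 to 61 in control and 86 to 134 in treated RNA, and on 0 arrays did its control signal stand well above background. Its normalised log2 levels averaged 6.43 in control and 6.76 in treated cells, a ratio of 1.25. As its control signal was not told from background, the size of this ratio depends on the background correction, from 0.27 on the log2 scale without one to 1.40 with Feature Extraction's log ratios. The Cenpf call was lost without replicate 1 (adjusted p = 0.126), 2 (0.0587) or 4 (0.176), and its mean was −0.058 under median centring and −0.73, called lower, under centring on the tested genes.

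Of the 7 genes of condensin, topoisomerase II and Ki-67, which shape and coat mitotic chromosomes, 6 rose, with a median of 0.52. Top2a, the topoisomerase that untangles sister chromatids, had ratios of 0.72, 1.02, 1.07 and 1.22 and a mean of 1.01 ± 0.21, or 2.01-fold (adjusted p = 0.00116). Ncaph, the kleisin that closes the condensin I ring, had 0.57, 1.00, 0.83 and 0.77 and 1.73-fold (adjusted p = 0.00188). Both had treated levels above all control levels, and both kept their calls when any array was left out. Ncapd2, a HEAT-repeat subunit of condensin I, had 0.28, 0.89, 0.52 and 0.38 and 1.43-fold (adjusted p = 0.0143). The call of Ncapd2 was lost without replicate 3 (adjusted p = 0.067).

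Ncapg, the other HEAT-repeat subunit of condensin I, had ratios of 0.41, 0.28, 0.30 and 0.37 and a mean of 0.34 ± 0.06 (adjusted p = 0.00924). It was above background in the control channel on 1 array, lost its call without replicate 3 (adjusted p = 0.0502) or 4 (0.0509), and ran from −0.60, called lower, under centring on the tested genes to 1.32 with Feature Extraction's log ratios. The 2 ATPases shared by condensins I and II gave the smallest values of the complex. Smc4 had 0.16, 0.62, 0.20 and 0.27 and 1.24-fold (adjusted p = 0.0455), highest on replicate 2, and did not pass without replicate 1 (adjusted p = 0.077), 3 (0.105) or 4 (0.124). Smc2 had 0.18, 0.04, 0.27 and 0.59 and a 95% confidence interval of 0.03 to 0.51 (adjusted p = 0.0844), lowest on replicate 2, and passed without that array at 0.35 (adjusted p = 0.0185).

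Mki67 encodes Ki-67, the surfactant of mitotic chromosomes and a common proliferation marker. Its brightest probe had ratios of 0.38, 1.56, 0.29 and 0.57, with a mean of 0.70 ± 0.59 and 1.63-fold (adjusted p = 0.0468). Replicate 2 was far above the other 3. Raw median intensities were 3539.5, 2043, 1935.5 and 3040 in control and 16584, 17883, 15886.5 and 19745.5 in treated RNA. Without replicate 2 the mean was 0.42 and passed (adjusted p = 0.00444), while leaving out replicate 1, 3 or 4 ended the call (adjusted p of 0.0793, 0.0766 and 0.121).

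All 3 spindle-associated proteins rose. Tpx2, which activates Aurora A and nucleates microtubules near chromatin, had ratios of 0.76, 1.53, 1.07 and 0.87 and a mean of 1.06 ± 0.34, or 2.08-fold (adjusted p = 0.00288). Nusap1, a microtubule bundler around chromosomes, had 0.76, 0.89, 0.74 and 0.92 and 1.78-fold (adjusted p = 0.000684). The Nusap1 ratios lay within 0.18 of each other, and its adjusted p was the lowest of the 46 genes. Hmmr, the hyaluronan-mediated motility receptor that also binds spindle microtubules, had 0.31, 0.37, 0.26 and 0.21 and 1.22-fold (adjusted p = 0.0159). Its treated and control levels overlapped between arrays, and the call was lost without replicate 1 (adjusted p = 0.065), 3 (0.0749) or 4 (0.0525).

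The anaphase-promoting complex axis holds the activator, the ubiquitin-conjugating enzyme, securin and separase. Of these 4 genes 3 rose, with a median of 0.43. Ube2c, the enzyme that starts ubiquitin chains on its substrates, had ratios of 0.65, 0.46, 0.51 and 0.41 and a mean of 0.51 ± 0.10, or 1.42-fold (adjusted p = 0.00358). Espl1, separase, which cuts cohesin, had 0.73, 0.21, 0.82 and 0.72 and 1.54-fold (adjusted p = 0.00912). Replicate 2 was far below the other 3 arrays for Espl1, and the call was lost without replicate 3 (adjusted p = 0.0524). Cdc20, the activator restrained by the checkpoint, had 0.07, 0.29, 0.37 and 0.70 and 1.28-fold (adjusted p = 0.0462), lost without replicate 3 (adjusted p = 0.15) or 4 (0.138). Pttg1, securin, the inhibitor of separase, had 0.03, 0.05, 0.15 and 0.16 and a mean of 0.10 ± 0.06 (adjusted p = 0.259, 95% confidence interval −0.05 to 0.25). All 4 values of this probe, the brightest for Pttg1, were small. A second Pttg1 probe was at 0.32 ± 0.08 and passed over all probes. The difference between Pttg1 and Espl1 was not tested.

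The 4 cytokinesis genes rose with a median of 0.44. Ect2, the exchange factor that turns on RhoA at the furrow, had ratios of 0.57, 0.53, 0.46 and 0.59 and a mean of 0.54 ± 0.05, or 1.45-fold (adjusted p = 0.00217). Anln, anillin, the scaffold of the contractile ring, had 0.56, 0.42, 0.56 and 0.52 and 1.43-fold (adjusted p = 0.00263). These genes were among the most even across arrays, and both kept their calls when any array was left out. Racgap1, the GTPase-activating subunit of centralspindlin, had 0.01, 0.59, 0.45 and 0.37 and 1.28-fold (adjusted p = 0.043). It was near 0 on replicate 1, and the call was lost without replicate 2 (adjusted p = 0.0505), 3 (0.16) or 4 (0.136). Prc1, which bundles the central spindle, had 0.27, 0.09, 0.32 and 0.42 and 1.21-fold (adjusted p = 0.0336), lost without replicate 1 (adjusted p = 0.102), 3 (0.136) or 4 (0.134).

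Replicate 2 ordered the mitotic genes differently from the other arrays. It was the highest array for 25 of the 46 genes and the lowest for 10, while replicate 1 was the lowest for 24. Kinesins had medians of 0.60, 1.25, 0.72 and 0.86 on replicates 1 to 4. As a description across the 46 genes, the ratios on replicate 2 correlated with those of the other arrays at r of 0.22 to 0.40, and the other arrays with each other at 0.80 to 0.86. Without Ndc80 these were 0.56 to 0.60 and 0.71 to 0.73. Replicate 2 stood apart over all 15673 genes as well, at 0.63 to 0.72 against 0.86 to 0.90. Its treated channel had the lowest median intensity, 149.5, of the 4. The part of that in the values on replicate 2 was not tested.

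**Figure D3:**
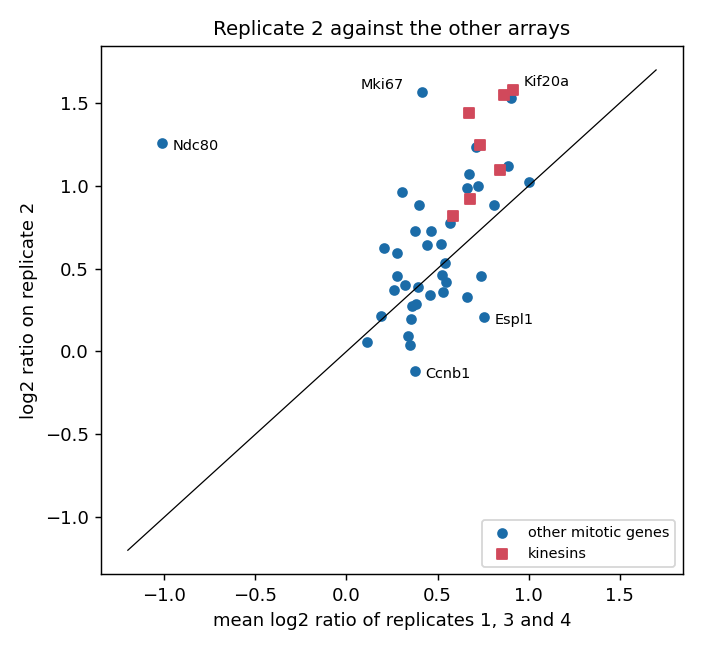
Log2 ratio of each mitotic gene on replicate 2 against its mean over replicates 1, 3 and 4, with kinesins as red squares and the line of equal values in black. Kinesins lie above the line; Ndc80 lies far off it, at 1.26 on replicate 2 and −1.01 over the other arrays, and Espl1 and Ccnb1 lie below it.

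Without replicate 2, 41 mitotic genes were called higher, beside 25.9% of all genes, and 1 lower (Ndc80). Of those 41 higher calls, 39 were shared with all 4 arrays. Leaving out replicate 1, 3 or 4 left 35, 26 and 27 called higher, beside 13.2%, 10.2% and 11.5% of all genes. Of the 41 genes called with all arrays, 25 were called higher in each set of 3 arrays. These 25 were all 7 kinesins, all 4 checkpoint genes, Cdk1, Ccna2, Plk1, Cdca8, Cenpa, Nuf2, Spc25, Ncaph, Top2a, Tpx2, Nusap1, Ube2c, Anln and Ect2.

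Genes with more than 1 tested probe gave a check on the choice of the brightest. Of 12 such genes, 5 had every tested probe higher, 6 had some higher, and Racgap1 had none past the threshold when p-values were adjusted over all 28921 probes. In all, 46 of the 62 tested probes of mitotic genes were called higher, against 16.5% of all tested probes, and 0 lower. For Ccnb1, which did not pass on its brightest probe, the other probes were at 0.69 ± 0.17 (adjusted p over probes = 0.0038) and 0.60 ± 0.07 (0.0025). Taken as the mean of its probes, Ccnb1 passed at 0.52, Mad2l1 was at 0.38 and Tpx2 at 0.60. Pttg1 likewise had a second probe at 0.32 ± 0.08 (adjusted p over probes = 0.0150). For Mki67 the brightest probe missed the threshold over probes (adjusted p = 0.0582), and the second, at 0.68 ± 0.34, was again highest on replicate 2 and passed (0.0153).

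Some probes of called genes did not pass. For Tpx2, the brightest probe, on transcript NM_028109, gave 1.06 and the other, on NM_001141977, gave 0.15 ± 0.32 (adjusted p over probes = 0.432). The 3 Mad2l1 probes carry the same transcript name, and gave 0.77, −0.19 ± 0.28 (adjusted p over probes = 0.249) and 0.56 ± 0.22 (0.0101). For Cdk1 the third probe was at 0.17 ± 0.19 beside 0.58 and 0.60. The 3 Birc5 probes, at 0.49, 0.73 and 0.78, all passed, as did both probes of Ube2c, Kif2c, Cdca8 and Incenp. A second Nuf2 probe was not well above background in either channel on any array and was not tested.

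**Figure D4:**
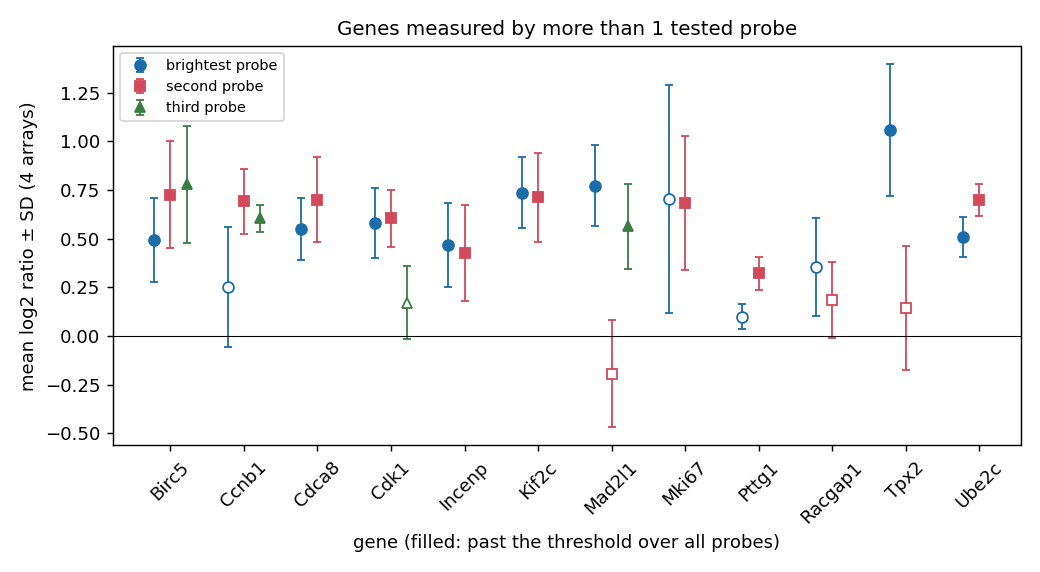
Mean log2 ratio with SD over 4 arrays for each tested probe of the 12 genes with more than 1. Filled symbols passed the threshold over all probes and open ones did not; Ccnb1, Mki67, Pttg1 and Racgap1 have an open brightest probe, and Mad2l1, Tpx2 and Cdk1 hold a probe near 0 beside probes that passed.

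The size of the ratio went with brightness to a small degree. As a description, Spearman's rho between the mean ratio and mean brightness was −0.29 over the 46 genes and −0.07 over all genes, and the dimmer genes of the set had a median of 0.74 against 0.47 for the brighter. Motif content did not order the ratios in the direction of higher values. The 26 genes with both a CHR element and a CCAAT box had a median of 0.53, with 25 called higher, and the 13 with 1 or neither had 0.74, with 10 called higher. Neither comparison was tested.

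Other genes of the same processes were read from lists of symbols. Of 70 tested genes of the wider mitotic list, 52 rose, or 74.3%, beside 19.8% of all genes. Another 2 fell and 16 missed the threshold, and the median was 0.60. Ckap2, a spindle protein, was at 1.14 ± 0.24 (adjusted p = 0.000998), Pbk, a mitotic kinase, at 1.02 ± 0.04 (adjusted p = 0.000204) and Trip13, the ATPase that recycles Mad2, at 0.92 ± 0.08 (adjusted p = 0.000411). The genes that fell were Ckap5, a microtubule polymerase, at −0.26 ± 0.14 and Ncaph2, the kleisin of condensin II, at −0.26 ± 0.09. They are named because they were few, and 0 genes of the list were called lower under median centring and 4 under centring on the tested genes. The 2 other condensin II genes of the list, picked after their values were seen, went the other way, Ncapg2 at 0.89 ± 0.12 and Ncapd3 at 0.48 ± 0.08. Knstrn, a kinetochore adaptor, did not pass at −0.27 ± 0.47 and, as for Ndc80, was above 0 only on replicate 2.

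DNA replication genes rose in 29 of 40 cases, or 72.5%, beside 19.8% of all genes, with a median of 0.47. In limma 0 of them were lower, also at an unadjusted p under 0.05. Under centring on the tested genes 34 were higher and 2 lower. Mcm4, of the replicative helicase, was at 1.11 ± 0.28 (adjusted p = 0.00162), Gins1 of the same machine at 0.76 ± 0.18 (adjusted p = 0.00222) and Rpa3, of the single-strand binding protein, at 0.73 ± 0.43 (adjusted p = 0.0173). Rrm2, of ribonucleotide reductase, did not pass at 0.19 ± 0.12 (adjusted p = 0.0872). The mitotic genes and the replication genes thus had medians of 0.52 and 0.47, and the difference between the lists was not tested.

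Subunits of the anaphase-promoting complex, present throughout the cell cycle, were spread around 0. Of 15 genes of this list, which also holds inhibitors, 3 rose, 3 fell and 9 did not pass, so that 20% were higher, beside 19.8% of all genes. The median was −0.08, and it was 0.88 under median centring, where the median of all genes was 0.70, and 0.20 under centring on the tested genes. Fbxo5, the inhibitor Emi1, which is itself a cell cycle gene, rose by 0.70 ± 0.20 (adjusted p = 0.00324). Cdc16 at 0.43 ± 0.12 and Anapc10 at 0.26 ± 0.08 rose too. Anapc11, the RING subunit, was at −0.48 ± 0.27 (adjusted p = 0.0206), Anapc2, the cullin it pairs with, at −0.46 ± 0.28 (adjusted p = 0.024) and Cdc27 at −0.31 ± 0.21 (adjusted p = 0.0497). Anapc5 did not pass at −0.15 ± 0.23.

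Cohesin holds sister chromatids together until separase acts. Of 12 genes of cohesin and its regulators 4 were higher, or 33.3%, beside 19.8% of all genes, with a median of 0.22. In limma 0 were lower (1 at an unadjusted p under 0.05). All 12 were called higher under median centring and 8 under centring on the tested genes. Esco2, the acetyltransferase of S-phase cohesin, was at 0.89 ± 0.12 (adjusted p = 0.000713), Pds5b at 0.77 ± 0.25 (adjusted p = 0.00382), the loader Nipbl at 0.75 ± 0.33 (adjusted p = 0.00805) and the core subunit Rad21 at 0.24 ± 0.08. Smc1a, another core subunit, did not pass at −0.22 ± 0.19.

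Of 22 transcription factors of the mitotic programme, 8 rose, or 36.4%, beside 19.8% of all genes. A further 2 fell and 12 missed the threshold, and the median was 0.15. E2f5 was at 0.61 ± 0.08 (adjusted p = 0.00174), Tfdp1, a dimer partner of E2F, at 0.53 ± 0.12 (adjusted p = 0.00346) and E2f2, an activator E2F, at −0.69 ± 0.27 (adjusted p = 0.00637). E2f8, a repressor, fell as well, at −0.26 ± 0.12, and both genes were above 0 and called higher under median centring. The genes for the activators named above for the MuvB core, given here after their values were seen, were Foxm1 at 0.40 ± 0.18 (adjusted p = 0.0146) and Mybl2 at 0.37 ± 0.08 (adjusted p = 0.0076). Picked likewise, the pocket proteins of DREAM rose too, Rbl2 at 0.53 ± 0.21 (adjusted p = 0.00805) and Rbl1 at 0.30 ± 0.15 (adjusted p = 0.0301). Of its E2Fs, E2f5 rose, as given above, and E2f4 did not pass at −0.19 ± 0.20. Rbbp4, a MuvB subunit, did not pass at 0.32 ± 0.48.

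The median of the mitotic genes stayed above that of all genes under every processing tried, while the counts moved. With Feature Extraction's own log ratios 33 genes were called higher, beside 19.3% of all genes. The authors' value table, which holds these same ratios, also gave 33, beside 19.2%. Those lost in both were Aurka, Cenpe, Smc4, Mki67, Hmmr, Cdc20, Prc1 and Racgap1. Scaling without loess had the largest effect on the level. Median centring put the median of all tested genes at 0.70, that of the mitotic genes at 1.44 and 67% of all genes among those called higher. Relative to the median of all genes the mitotic median was then 0.74 higher, against 0.50 with loess.

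**Figure D5:**
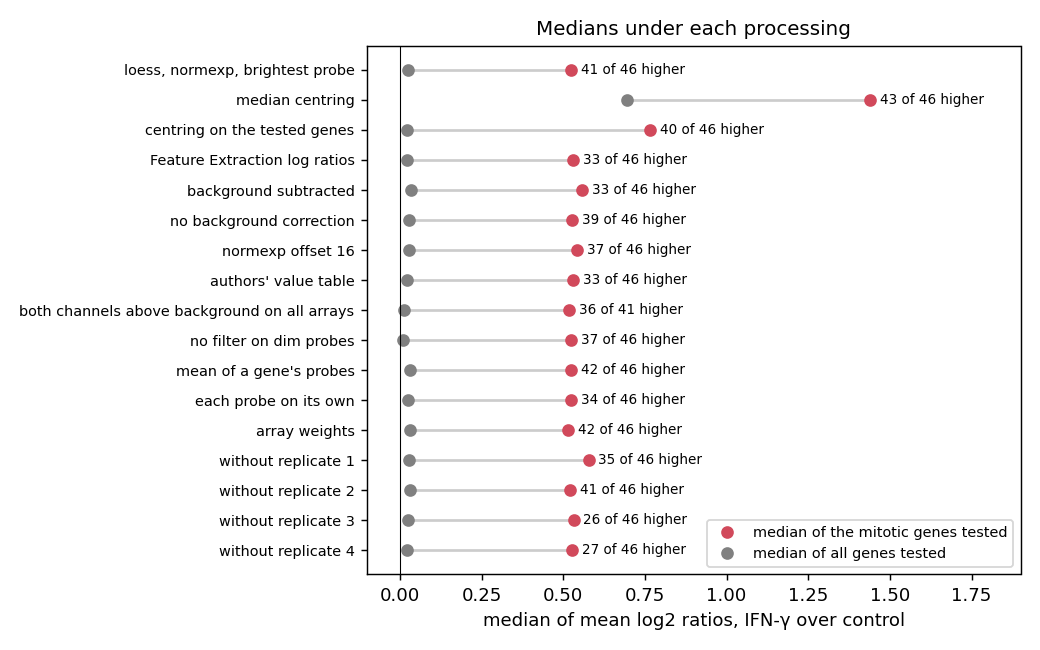
Median over the mitotic genes (red) and over all tested genes (grey) of the mean log2 ratio, under each processing and with each array left out, with the number of mitotic genes called higher beside it. The red point lies to the right of the grey in every row, and median centring moves both, to 1.44 and 0.70.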

How the data were processed

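Gene expression was measured on 4 Agilent arrays of 2 colours. The spot intensities and the log10 ratios of Cy5 to Cy3 in the deposited scanner files come, per the file headers, from Agilent Feature Extraction 10.7.3.1 with mouse build mm9. The authors' deposited value table holds log2 ratios. Set against the scanner ratios on tested probes it had slopes of 3.32 and correlations of 1.00 on all 4 arrays, so its scale and direction (Cy5 over Cy3) are known. Its values equalled those ratios on the log2 scale, within 0.00001, for 99.9% to 100% of tested probes. Its column medians were −0.11, −0.12, −0.12 and −0.10, and its centring is thus that of Feature Extraction.

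Median spot intensities were background-corrected with normexp (offset 50) and the log2 ratios of each array were normalised by loess, with limma 3.58.1 and R 4.3.3 and control spots at weight 0. Flagged spots were left out, and the spots of a probe averaged. Of 39429 probes that were not controls, 26055 received 1 symbol through their accession in the RefSeq table of GRCm38.p6, 0 several and 13374 none. A probe was tested if 1 of its channels was well above background on 3 or more of the 4 arrays, and a gene was its brightest tested probe. The mean log2 ratio was tested against 0 in a two-sided limma fit (lmFit, eBayes) without covariates, and p-values were adjusted by Benjamini-Hochberg over 15673 genes, with a threshold of 0.05. Every adjusted p is from this fit, or from the same fit over 28921 probes where so named. The procedure was checked on simulated data, and no outcome of that check is given here. The channel levels of Cenpf, whose control signal was above background on 0 arrays, come after loess and Aquantile and are open to dye bias.

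The 46 genes and the other lists were chosen with earlier results of these data known. All 46 genes are named, and of each other list up to 3 called genes with the largest absolute ratio and the brightest that did not pass. A few others are named with the reason given. All 4 arrays lay on 1 slide with 1 scan, which left no batch to fit. The alternatives tried were other scalings, background corrections, offsets, filters, probe rules and array weights, leaving out each array, and the unpaired test with a 2-fold limit that the study's design text names, called the methods' t-test. The 4 arrays limit the precision. Coordinates other than those of RefSeq promoters are not printed, since the builds differ.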

Additional observations from a re-analysis of the deposited data

Results flagged for a closer look

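In 3 of the 46 mitotic genes a single array lay apart from the other 3 by Dixon's test at the 95% level. Plk1 on replicate 2, at 0.73, was above the rest. Cdca8 on replicate 1, at 0.31, and Espl1 on replicate 2, at 0.21, were below the rest. Chance sets about 1 in 20 such groups apart, so this number of genes is near what chance gives.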

How the results depend on the processing

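Over all alternatives, 672 single-gene results kept their direction and side of the threshold, 130 lost the call, 16 gained it and 5 changed direction. Median centring turned Cenpf to −0.058 and Ndc80 to 0.52, with 13148 of all genes called, 43 mitotic genes higher and a mitotic median of 1.44. Centring on the tested genes turned Ttk to −0.21, Cenpf to −0.73 and Ncapg to −0.60, with 2 mitotic genes lower, 10187 genes called and a mitotic median of 0.76. It also moved the share of calls that were higher from 58.8% to 46.2%, and median centring moved it to 79.9%. Testing each probe on its own called 8411 probes. Array weights, with 0.31 for replicate 2, called 1 mitotic gene lower. The methods' t-test called 4 mitotic genes and 396 genes in all with its 2-fold limit, and 31 and 4068 without it, an alternative added after seeing the data. Leaving out 1 array gave 26 to 41 mitotic genes higher, 0 to 1 lower, 2522 to 7036 genes called and a median of 0.52 to 0.58. Aurka, Cdc20, Cenpf, Mki67, Racgap1 and Smc4 lost the call in 10 alternatives each. Apart from the limits of each alternative's own construction, the cause was not tested. With the control channel near background, the ratios of Cenpf, Ncapg, Ttk, Kif11 and Kif18a are limited by signal. The limma fit already used the pairing of treated with control RNA on each array. No further pairing was fitted, as the labels number 1 group of 4 samples.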

Other observations

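Outside the mitotic genes, 771 tested genes had both a CHR element and a CCAAT box in the promoter window. Of these 168, or 21.8%, were called higher, with a median log2 ratio of 0.05. Among the 11660 other genes without both motifs the share was 19.1% and the median 0.02. Beside these stand the mitotic genes with both motifs, at 25 of 26 called higher and a median of 0.53. The difference was not tested.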
